A study of Mus musculus with 6 samples.

Results

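Hemidesmosome and basement membrane adhesion genes were followed in dissected skin of Hoxc13 mutant and wild type mice. The group holds 9 genes chosen by name: the laminin-332 chains Lama3 and Lamb3, the integrin subunits Itga6, Itgb4, Itga3 and Itgb1, the plakins Plec and Dst, and the tetraspanin Cd151. All 9 had a probe set among the 16331 that are not controls. The wild type group comprised 3 skin samples labelled WT. The mutant group comprised 3 skin samples labelled as a Hoxc13 knockout carrying the allele Hoxc13tm1Mrc. Both groups were labelled C57BL/6, male and skin, with 5 dpn in the sample titles. The Hoxc13 protein is a homeodomain factor needed for hair shaft formation. RNA came from whole dissected skin, so fewer cells of a type and less RNA per cell cannot be told apart in any value below.

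Basal keratinocytes are fastened to the basement membrane by hemidesmosomes. Laminin-332, secreted by the keratinocytes, is the ligand in the basement membrane, and integrin alpha6 beta4 is its transmembrane receptor in the hemidesmosome. Inside the cell the plakins plectin (Plec) and BPAG1 (an isoform encoded by Dst) tie the receptor to keratin filaments. Integrin alpha3 beta1 binds the same laminin outside hemidesmosomes and connects to actin, and Cd151 associates with both integrins in the membrane. Inherited loss of several of these proteins causes the blistering disease epidermolysis bullosa, and the follicle's outer root sheath rests on the same kind of membrane.

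Upstream sequence was at hand for 5 of the 9 genes (Dst, Lamb3, Cd151, Itgb1 and Itga3), in 9 windows that each cover the 250 bases before a RefSeq transcription start in GRCm38.p6. Shown are Lamb3, the single gene of the group called between the groups with all 6 arrays, Itga3, the member with the smallest difference, and Dst, whose 2 annotated starts here differ in composition. The sources do not state whether the Dst probe set separates transcripts of these starts. Capitals mark GGGCGG, the GC box, on either strand, and all sequences run 5′ to 3′ along the gene's own strand.
Lamb3, chr1:193301744-193301993, plus strand: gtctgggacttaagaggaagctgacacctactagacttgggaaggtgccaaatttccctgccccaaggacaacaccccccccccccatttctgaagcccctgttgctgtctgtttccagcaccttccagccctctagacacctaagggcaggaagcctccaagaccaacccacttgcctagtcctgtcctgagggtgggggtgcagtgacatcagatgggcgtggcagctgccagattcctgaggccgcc
Dst, chr1:34011345-34011594, plus strand: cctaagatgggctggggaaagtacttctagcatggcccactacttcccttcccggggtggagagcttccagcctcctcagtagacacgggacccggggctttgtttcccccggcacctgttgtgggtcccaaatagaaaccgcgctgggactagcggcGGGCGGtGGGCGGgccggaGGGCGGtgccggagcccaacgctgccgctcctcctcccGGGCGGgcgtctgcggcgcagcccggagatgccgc
Dst, chr1:34160010-34160259, plus strand: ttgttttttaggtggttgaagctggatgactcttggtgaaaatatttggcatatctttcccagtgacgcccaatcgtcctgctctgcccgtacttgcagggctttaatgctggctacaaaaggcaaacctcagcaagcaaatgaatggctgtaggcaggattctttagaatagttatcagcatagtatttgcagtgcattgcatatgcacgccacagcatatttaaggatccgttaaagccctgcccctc
Itga3, chr11:95076715-95076964, minus strand: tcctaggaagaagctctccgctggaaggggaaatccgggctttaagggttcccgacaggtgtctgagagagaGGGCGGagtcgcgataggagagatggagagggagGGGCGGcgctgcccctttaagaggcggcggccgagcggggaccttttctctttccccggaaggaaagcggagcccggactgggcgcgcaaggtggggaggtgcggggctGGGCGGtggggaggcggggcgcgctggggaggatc
The GC box was found in 5 of the 9 windows, against 32.7% of 32851 promoter windows of the same length. It occurred 4 times in the upstream Dst window, 3 times in the Itga3 window shown, and not in the Lamb3 windows or the downstream Dst window. The share of G and C was 68.8% in the first Dst window, 45.2% in the second, 58.8% in the Lamb3 window and 67.6% in the Itga3 window. TGANTCA, the AP-1 motif, was in 0 of the 9 windows and in 6.75% of all windows. TCGTAAA, of the kind bound by posterior Hox proteins, was also in 0 of the 9 and in 0.478% of all. A match or its lack describes these letters only.

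Before the results, several facts of the arrays bear on every value. Mutant replicate 3 stood apart: its correlation with the other mutant arrays across probe sets was 0.989 and 0.990, against 0.997 between mutant replicates 1 and 2 and 0.996 to 0.997 within the wild type group (these are correlations over probe sets, which are not independent of each other). The Hoxc13 probe set (Entrez gene 15422) read 9.63, 9.81 and 9.83 in wild type and 8.95, 8.75 and 9.74 in mutant replicates 1, 2 and 3, which gave -0.61 (SE 0.23) with limma's adjusted p = 0.293, and -0.90 with mutant replicate 3 set aside (adjusted p = 0.00114). It is not stated whether these probes lie within the sequence that the allele disrupts, so the level does not check the labels. Xist read 11.15 to 11.67 on the arrays while 6 Y-linked probe sets read 2.98 to 4.89, against the label male on every sample. Skin markers fixed for this work were present in both groups: the mean of 5 basal keratinocyte markers read 11.02 to 11.21 in wild type and 11.11 to 11.41 in mutant skin. Hair shaft markers fell, all 5 of 5, from list means of 12.31 to 12.74 to means of 5.45 to 5.93.

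All values are log2 RMA values, an array intensity scale on which a step of 1 is a doubling, and they cannot be set against each other between genes. The members read between 7.60 and 10.90, above the array median of 7.41. As a group they were slightly higher in mutant skin, but a single member passed the test. Lamb3 rose, at adjusted p = 0.0494, where the test called 2.08% of all probe sets, 0.478% higher and 1.6% lower, and none of the 9 members was called lower. In 6 members every mutant value lay above every wild type value, an arrangement seen in 12.5% of all probe sets, with 7.82% wholly below. The median difference over the 9 members was 0.22, beside 0.0247 over all probe sets. Differences were above 0 in all 9 members and in 57.6% of all probe sets, with Itga3 at 0.01 and of the opposite sign in several alternatives. The members were chosen with earlier results of these data known, so these counts describe the group and do not test it. The design text calls the samples of a group independent without naming litters or days. Each p therefore sets a difference against the spread among these arrays, moderated over all probe sets.

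**Figure D1:**
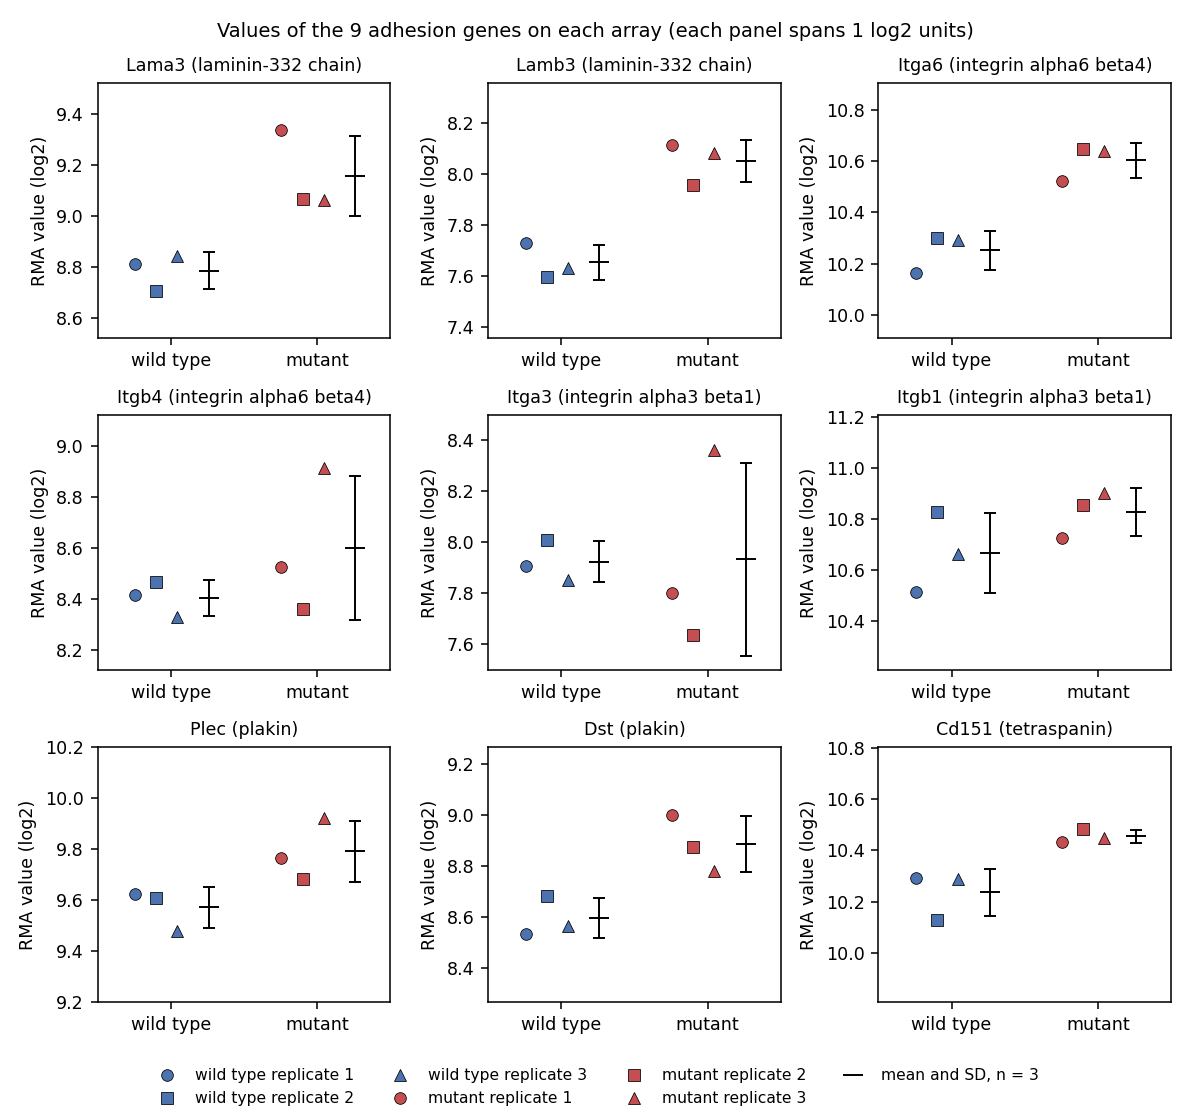
Log2 RMA value of each of the 9 genes on the 6 arrays, with circles, squares and triangles for replicates 1, 2 and 3 of wild type (blue) and mutant (red) skin, and bars for mean and SD (n = 3). Groups are apart for Lama3, Lamb3, Itga6, Plec, Dst and Cd151, and mutant replicate 3 lies far above the other mutant arrays for Itgb4 and Itga3.

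Both laminin chain genes were apart between the groups, and Lamb3 passed the test. Lamb3, the beta3 chain of laminin-332, read 7.73, 7.60 and 7.63 in wild type and 8.11, 7.96 and 8.08 in mutant replicates 1, 2 and 3. The groups did not overlap, and mutant replicate 3 lay between the other mutant arrays. The difference was 0.40 (SE 0.08, 95% confidence interval 0.22 to 0.58), a 1.32-fold higher level (1.16 to 1.49). The call sat at the threshold. Dropping any wild type array, or mutant replicate 1 or 2, lost it (differences of 0.37 to 0.44, adjusted p = 0.0883 to 0.217), while without mutant replicate 3 it was kept (0.38, adjusted p = 0.0208).

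Lama3, the alpha3 chain that carries the integrin-binding domain, read 8.81, 8.71 and 8.84 in wild type and 9.34, 9.07 and 9.06 in mutant skin. Mutant replicate 1 was the highest and the groups were apart by 0.22. Its difference of 0.37 (SE 0.10, interval 0.15 to 0.59) was close in size to that of Lamb3 but did not pass (adjusted p = 0.128). Leaving mutant replicate 3 out gave 0.41 (adjusted p = 0.029).

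Of the hemidesmosomal receptor, the alpha6 subunit was apart between the groups and the beta4 subunit overlapped. Itga6, the alpha6 subunit shared by the hemidesmosomal receptor and integrin alpha6 beta1, read 10.16, 10.30 and 10.29 in wild type and 10.53, 10.65 and 10.64 in mutant skin. The groups were apart by 0.23, and the SD among mutant arrays was 0.07. The difference of 0.35 (SE 0.08, interval 0.18 to 0.53) missed the threshold (adjusted p = 0.0723) and passed without mutant replicate 3 (0.34, adjusted p = 0.0305).

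Itgb4, the beta4 subunit whose long cytoplasmic tail binds plectin, read 8.42, 8.47 and 8.33 in wild type and 8.53, 8.36 and 8.91 in mutant skin. Mutant replicates 1 and 2 lay at or near the wild type range, and mutant replicate 3 was 0.47 above their mean. The difference of 0.20 (SE 0.14, interval -0.12 to 0.52, adjusted p = 0.562) was 0.04 without that array (interval -0.15 to 0.23, adjusted p = 0.789). A change of beta4 of the size seen for alpha6 lies inside the first interval and outside the second, whose fit uses mutant arrays that correlate at 0.997.

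Of integrin alpha3 beta1, the alpha3 subunit ranged over 0.72 across the 6 arrays, the widest of the 9 members, and the beta1 subunit over 0.39. Itga3, the subunit that gives this receptor its laminin preference, read 7.91, 8.01 and 7.85 in wild type and 7.80, 7.64 and 8.36 in mutant skin. The first 2 mutant arrays lay below every wild type array and mutant replicate 3 lay above every one. The mean difference of 0.01 (SE 0.17, interval -0.40 to 0.41, adjusted p = 0.992) therefore averages opposite deviations, and without mutant replicate 3 it was -0.20 (interval -0.40 to -0.01, adjusted p = 0.149).

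Itgb1, the common beta subunit of many matrix receptors in all layers of skin, read 10.51, 10.83 and 10.66 in wild type and 10.72, 10.86 and 10.90 in mutant skin. The groups overlapped, and the spread among wild type arrays (SD 0.16) was close in size to the difference of 0.16 (SE 0.10, interval -0.07 to 0.39, adjusted p = 0.504).

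Both plakins and Cd151 were apart between the groups without passing the test. Dst, whose epithelial isoform is the hemidesmosomal plaque protein BPAG1e and whose other isoforms serve muscle and neurons, read 8.54, 8.68 and 8.57 in wild type and 9.0, 8.87 and 8.78 in mutant skin. Its lowest mutant value was in mutant replicate 3. The difference of 0.29 (SE 0.08, interval 0.09 to 0.49, adjusted p = 0.167) passed without that array (0.34, adjusted p = 0.0296).

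Plec, the linker between beta4 and keratin filaments, read 9.62, 9.61 and 9.48 in wild type and 9.77, 9.68 and 9.92 in mutant skin, with a gap of 0.06 between the groups. The difference was 0.22 (SE 0.09, interval 0.02 to 0.42, adjusted p = 0.31). For Cd151, the tetraspanin partner of the laminin-binding integrins, the values were 10.29, 10.13 and 10.29 in wild type and 10.43, 10.48 and 10.45 in mutant skin. Its mutant arrays were the tightest of any member (SD 0.03), and its difference of 0.22 (SE 0.07, interval 0.05 to 0.39) was the same size without mutant replicate 3 (0.22). It did not pass in either fit (adjusted p = 0.232 and 0.103).

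**Figure D2:**
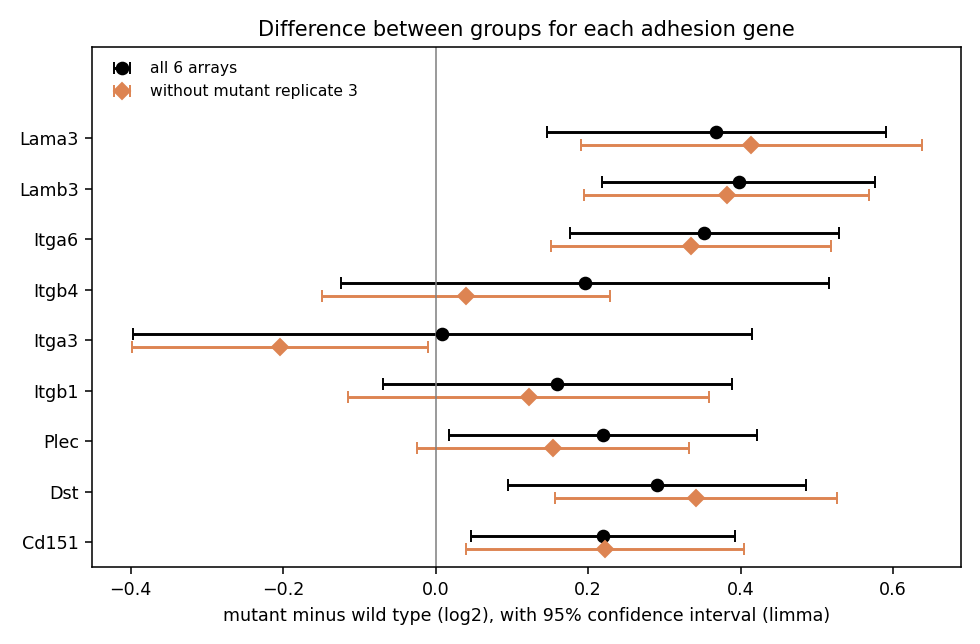
Difference between mutant and wild type skin (log2) with its 95% limma confidence interval for each gene, from all 6 arrays (black) and without mutant replicate 3 (orange). Leaving out that array moves Itgb4 from 0.20 to 0.04 and Itga3 from 0.01 to -0.20, and moves Lamb3, Itga6 and Cd151 by less than 0.02.

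Without mutant replicate 3, 4 members passed, all higher in mutant skin (Lama3, Lamb3, Itga6 and Dst). That fit called 14.2% of all probe sets, 7.95% higher and 6.23% lower. It rests on mutant replicates 1 and 2 alone, and none of the 9 members was called lower there. The median difference of the members was 0.22 in that fit and 0.016 over all probe sets.

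Partners were then compared inside each array, which asks whether members of a complex changed unequally. Across 4 pairs the exact permutation test (two-sided, 20 arrangements) cannot go below p = 0.1. Lamb3 minus Lama3 was -1.13 ± 0.07 on wild type and -1.10 ± 0.12 on mutant arrays (SD, n = 3), differing by 0.03 (exact permutation p = 1, adjusted over the pairs 1). This difference between groups was smaller than the SD within either group.

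For the hemidesmosomal integrin, Itgb4 minus Itga6 went from -1.85 ± 0.11 to -2.00 ± 0.28, a difference of -0.16 (exact permutation p = 0.5, adjusted 0.8). Mutant replicates 1 and 2 (-2.00 and -2.29) lay below every wild type array and mutant replicate 3 (-1.73) above every one. Itgb1 minus Itga3 differed by 0.15 (exact permutation p = 0.5, adjusted 0.8), with mutant values of 2.92, 3.22 and 2.54 around a wild type range of 2.61 to 2.81 (the third value below it, the others above). Plec minus Dst differed by -0.07 (exact permutation p = 0.6, adjusted 0.8), again with mutant replicates 1 and 2 on one side of the wild type arrays and mutant replicate 3 on the other. With 3 arrays against 3 no pair could have passed at 0.05, so these values neither show nor exclude an unequal change.

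**Figure D3:**
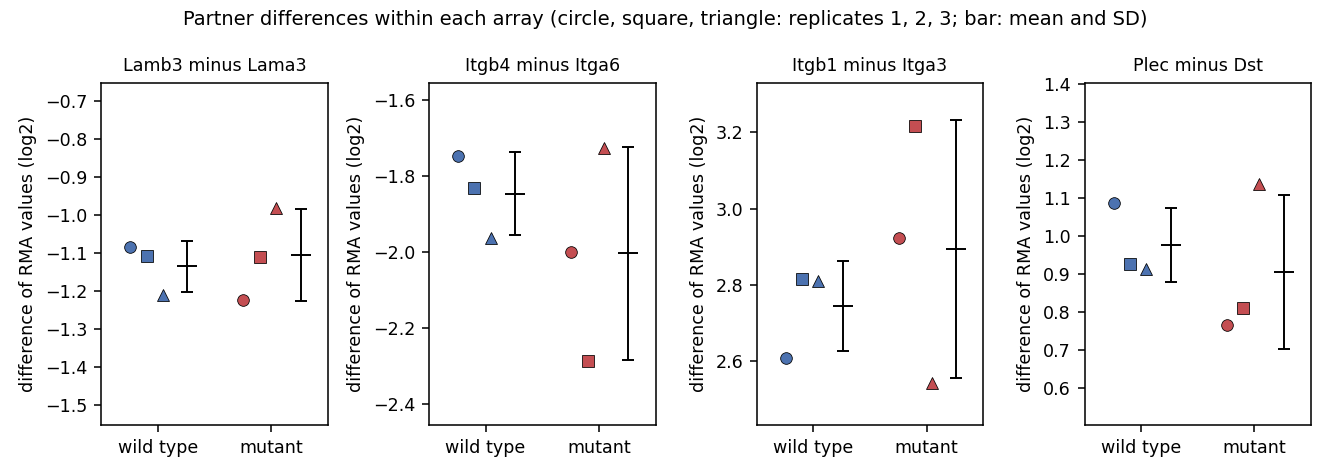
Difference between partners on each array (log2), with wild type in blue and mutant in red, replicate symbols as in the legend of values by array, and bars for mean and SD (n = 3). The laminin pair overlaps between the groups, and for the other 3 pairs mutant replicate 3 lies on the opposite side of the wild type values from mutant replicates 1 and 2.

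Members also differed in how mutant replicate 3 compared with the other mutant arrays. It was 0.64 higher for Itga3, 0.47 for Itgb4, 0.20 for Plec and 0.11 for Itgb1, and in these 4 genes it was the highest of all 6 arrays, as in 28.1% of all probe sets. Lamb3 and Itga6 were within 0.06 of the other mutant arrays' mean, and Cd151 was 0.01 below it. Lama3 was lower by 0.14 and Dst by 0.15. Of the basal keratin genes on the marker list, Krt5 and Krt14 were highest on that array and Krt15 was lowest. Krt5 read 13.27 there against 12.77 to 12.99 on the others, Krt14 read 13.05 against 12.51 to 12.64, and Krt15 read 12.29 against 12.45 to 12.70. The basal keratinocyte list mean, over Krt5, Krt14, Krt15, Trp63 and Cdh3, was 11.41 on mutant replicate 3, 11.11 and 11.13 on the other mutant arrays and 11.02 to 11.21 in wild type. None of these 5 markers passed the test, and their part in the members' values was not tested. With every array set relative to that list mean, which lowers every difference by 0.11, Lamb3 was at 0.29, Lama3 at 0.26, Itga6 at 0.24, Dst at 0.18 and Itga3 at -0.10. None of the 9 members then passed (Lamb3 adjusted p = 0.57), where 0.0429% of all probe sets were called higher.

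Other cell types of skin also contain some members, integrin beta1, plectin and dystonin in muscle among them. The mean of 6 skeletal muscle markers ranged from 10.32 to 11.76 in wild type and from 10.87 to 12.10 in mutant skin. Wild type replicate 2 was the highest of its group for this mean (11.76), for Itgb1 and for Dst. That array was also the highest of its group for Itga6, Itgb4 and Itga3. The same held for the basal and suprabasal keratinocyte, fibroblast, endothelial, pericyte and smooth muscle, fat cell and Schwann cell means. It did not hold for the macrophage and hair shaft means. In mutant replicates 1, 2 and 3 the muscle means were 12.10, 11.46 and 10.87. The Itgb1 values on these arrays were 10.72, 10.86 and 10.90, in the opposite order. The Dst values were 9.0, 8.87 and 8.78, in the same order as the muscle means, as were those of Lama3 (9.34, 9.07 and 9.06). Plec was highest on replicate 1 within wild type (9.62) and on replicate 3 within mutant skin (9.92). Of these 6 markers 0 passed the test. Pericyte and smooth muscle markers (5) had means of 9.45 to 9.63 in wild type and 9.68 to 9.82 in mutant skin, and macrophage markers (5) means of 8.30 to 8.38 and 8.38 to 8.96. Endothelial markers (5) overlapped, at 7.31 to 7.59 and 7.27 to 7.57, as did fibroblast markers (6), at 12.60 to 12.76 and 12.67 to 12.86. Fat cell markers (4) read 11.69 to 11.92 and 11.68 to 12.17, suprabasal keratinocyte markers (5) 13.27 to 13.34 and 13.30 to 13.49, and Schwann cell markers (3) 6.71 to 6.98 and 7.0 to 7.07. No marker of these lists was called with all 6 arrays. Without mutant replicate 3, the fit in which 4 members passed called 7.95% of all probe sets higher and 6.23% lower. Of the markers it called higher 3 macrophage, 2 fat cell, 2 pericyte and smooth muscle, 1 fibroblast, 1 skeletal muscle and 1 Schwann cell marker. It called 1 Schwann cell marker lower. The part of these cells in the members' differences was not tested.

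**Figure D4:**
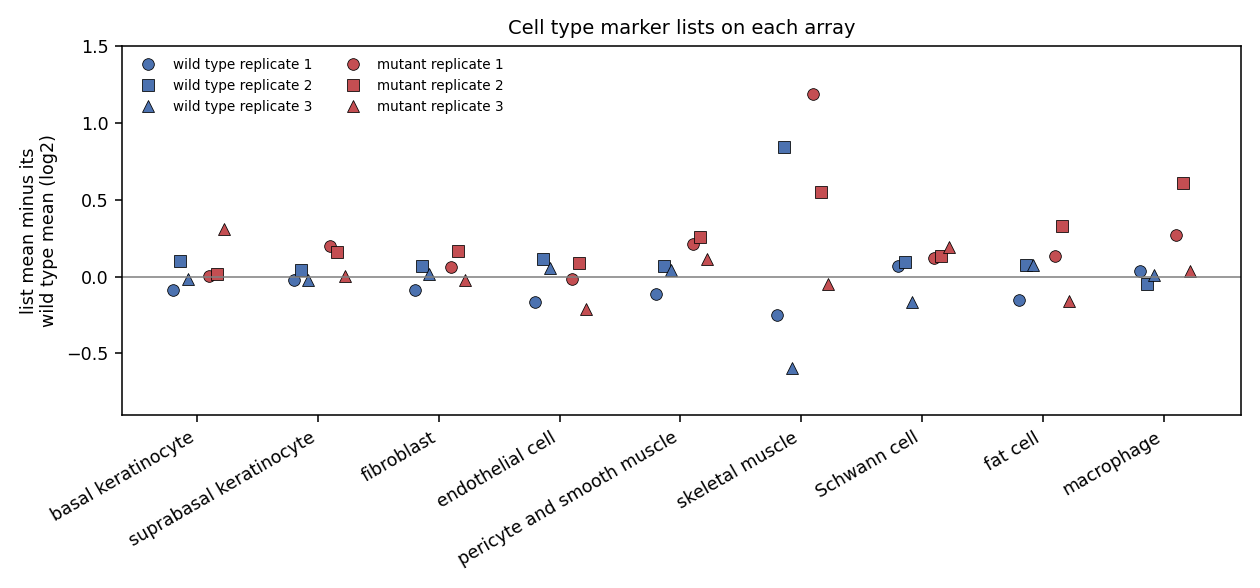
Mean of each cell type marker list on each array relative to its wild type mean (log2), with wild type in blue and mutant in red and symbols for replicates. The basal keratinocyte mean is highest on mutant replicate 3, and the skeletal muscle mean spreads from 10.32 to 11.76 within wild type before centring.

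Related genes were read from 8 lists holding 100 genes, of which 92 were measured. With all 6 arrays the limma test called 0 of the 92, while 22 were higher and 3 lower at an unadjusted p under 0.05, where 8.44% and 5.94% of all probe sets were. The median difference of the 92 was 0.12, and 27 of them lay wholly above wild type and 3 wholly below (12.5% and 7.82% of all probe sets). Without mutant replicate 3, 11 were called higher and 6 lower, where 7.95% and 6.23% of all probe sets were.

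Among the 6 measured partners of the hemidesmosome (Col17a1, Krt5, Krt14, Lad1, Col7a1 and Tns4), the median was 0.17. Col17a1, the transmembrane collagen of the hemidesmosome, was at 0.29 (SE 0.11, adjusted p = 0.311), with its highest value on mutant replicate 3 (10.86, against 10.52 and 10.45). All 3 mutant values were above those of wild type (10.29 to 10.37). Col7a1, the anchoring fibril collagen, was at 0.09 (adjusted p = 0.701). The smallest p of the list was that of Tns4, a tensin of epithelial adhesion sites, at 0.30 (adjusted p = 0.222). Lad1, an anchoring filament protein, was at -0.12 (adjusted p = 0.71) and was called lower without mutant replicate 3 (-0.27, adjusted p = 0.0363).

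The 8 other laminin chains had a median of 0.14, with 7 above 0. Lama2, the chain of muscle and nerve basement membranes, was at 0.46 (SE 0.12, adjusted p = 0.134), the largest difference of the list. It was among the 2 chains called higher without mutant replicate 3, the other being Lamb1 (0.45, adjusted p = 0.00716). Lama5, the chain of laminins that lie beside laminin-332 under the epidermis, was at 0.08 (adjusted p = 0.862).

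Of 23 other basement membrane components 15 were above 0, with a median of 0.07 and a range from -0.54 (Nid2, adjusted p = 0.233) to 0.64 (Frem1, adjusted p = 0.457). Frem1, of the Fraser complex that joins epidermis and dermis, read 7.49 and 7.36 on mutant replicates 1 and 2 and 5.99 on mutant replicate 3, against 6.28 to 6.34 in wild type. The smallest p of the list belonged to Smoc2 (0.30, adjusted p = 0.21), a calcium-binding matrix protein. Without mutant replicate 3, 6 of these components were called higher and 0 lower, in a fit that called 7.95% of all probe sets higher.

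The 13 other integrin subunits had a median of 0.10. Itga2, the alpha subunit of the keratinocyte collagen receptor, had the smallest p (0.38, SE 0.10, adjusted p = 0.14) and a gap of 0.22 between the groups. The 9 other laminin receptors and tetraspanins had a median of 0.16. The syndecan gene Sdc4 had their smallest p (0.28, adjusted p = 0.142), and the laminin receptor gene Bcam their largest difference (0.37, adjusted p = 0.197). Among 4 other plakins the median was -0.06, with Ppl (periplakin, of the cornified envelope) at -0.18 (adjusted p = 0.567). Ppl and Evpl were called lower without mutant replicate 3 (-0.33 and -0.37, adjusted p = 0.0219 and 0.0132), while Plec and Dst were above 0 in that fit. Focal adhesion genes (22) had a median of 0.14, with 19 above 0 and Zyx (zyxin) having the smallest p (0.33, adjusted p = 0.136). The 7 proteases that can process laminin-332 or its surroundings had a median of 0.18. Mmp2 had their smallest p (0.38, adjusted p = 0.136), and Tll1 their largest difference (0.40, adjusted p = 0.143).

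**Figure D5:**
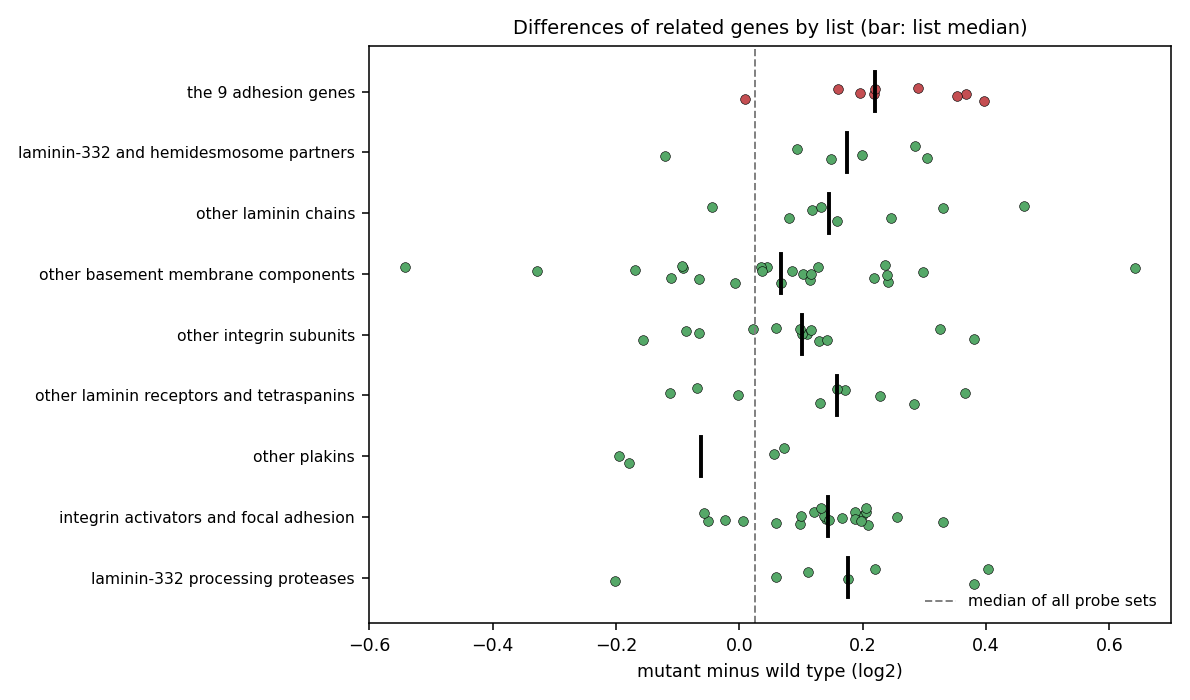
Difference between mutant and wild type skin (log2) of each gene, by list, with the 9 adhesion genes in red, the related lists in green, a black bar for each list's median and a dashed line for the median of all probe sets (0.0247). The medians run from -0.06 for other plakins to 0.22 for the 9 adhesion genes.

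For the 4 members whose values ranged over at least 0.5 across the 6 arrays, the gene with the nearest profile was found among 15635 named genes, as the root mean square difference after each gene was centred on its own mean. For Lamb3 it was Pdgfa, a growth factor gene, at 0.033 log2 units, and for Lama3 it was Bcl2, a survival gene, at 0.032. Itgb4 was nearest to Rhbdf2, an inactive rhomboid protease gene, at 0.016, and Rhbdf2 likewise had its highest value on mutant replicate 3 (9.28, against 8.68 to 8.91 elsewhere). Itga3 was nearest to Efnb1, an ephrin ligand gene, at 0.027, with 9.65 on mutant replicate 3 against 9.02 to 9.33. With so many genes compared over 6 arrays, close profiles are a description.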

How the data were processed

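Total RNA of dissected skin was hybridised to Affymetrix 3′ expression arrays after oligo(dT)-primed labelling, per the labels' protocols. Values were deposited on the log2 scale and come from RMA, according to the submitters' processing notes, which name no version. RMA subtracts background, gives all arrays one distribution and combines the probes of a probe set, which hides any change in total RNA. The number of arrays (3 per group) limits the precision.

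Of 16395 rows, 64 were controls and the other 16331 entered the test. Gene names came from the array annotation for 15644, with a single probe set per gene. Groups were taken from the sample titles. The comparison used R 4.3.3 and limma 3.58.1 (linear model with eBayes, two-sided, no filter, no block), and p-values were adjusted by Benjamini-Hochberg over all 16331 at a threshold of 0.05. The standard error and the 95% confidence interval use the moderated variance (7.53 degrees of freedom). Partner differences within arrays were compared with SciPy 1.17.1, and figures were drawn with matplotlib 3.10.9. On simulated data with 16331 probe sets and 20 simulations, the test recovered 69.8% of changes of 0.5 on the log2 scale and 93% of changes of 1, with 5.29% false among calls. Simulated arrays did not include one that stood apart.

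The members and lists were chosen with earlier results of these data known. Named were all 9 members, Hoxc13, from each related list the called genes with the smallest adjusted p or, with none called, the gene with the smallest p, and the genes nearest in profile. Col17a1, Krt5, Krt14, Col7a1, Lad1, Lamb1, Lama5, Nid2, Frem1, Bcam, Tll1, Krt15, Evpl and the genes listed as measured were named beyond that rule, after their values were seen. Alternatives were a filter on low mean levels, median centring, repeated quantile normalisation, array weights, a robust prior with an intensity trend, the replicate block, centring on basal keratinocyte markers, and leaving out each array. Promoter sequences are from RefSeq, GRCm38.p6.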

Additional observations from a re-analysis of the deposited data

How the results depend on the processing

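The count of called members was 1 with all 6 arrays, as with the low-level filter, median centring and repeated quantile normalisation. RMA had already given all arrays the same distribution, so median centring and repeated quantile normalisation could change little. The count was 0 with an intensity trend and robust prior, with the replicate block and with basal keratinocyte centring. It was 4 with array weights (mutant replicate 3 weighted at 0.234), and 0 to 4 when each array was left out. The number of probe sets called was 339. It was 1880 with array weights, 197 with the replicate block, and 151 to 2316 with each array left out, the highest without mutant replicate 3. Called genes of the related lists numbered 0, with 15 under array weights and 0 to 17 with each array left out. Itga3 changed sign with array weights (-0.15), basal keratinocyte centring (-0.10), without wild type replicate 3 (-0.03) and without mutant replicate 3 (-0.20), within a range of -0.20 to 0.16 over the arrays left out. The other 8 members kept a difference above 0 in every alternative run. Lamb3 stayed at 0.29 to 0.44, with adjusted p from 0.0148 (array weights) to 0.57 (basal keratinocyte centring). Leaving out each array gave 0.37 to 0.44. Partner differences with each array left out ran from -0.03 to 0.09 for Lamb3 minus Lama3, -0.30 to -0.02 for Itgb4 minus Itga6, -0.01 to 0.33 for Itgb1 minus Itga3 and -0.19 to -0.002 for Plec minus Dst.

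Same-numbered replicates did not deviate together (correlations of 0.036, -0.119 and -0.087), so the replicate numbers were not taken as pairs. With the replicate block, adjusted p was 0.115 for Lamb3. The lowest value of any member (7.60) lay above the lower quartile of the arrays (5.49). No background level was estimated, so a limit from background intensity was not tested.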
